A study of Mus musculus with 6 samples.

Results

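The genes described here carry out antigen presentation by MHC class I molecules and build the immunoproteasome. They are the 10 genes H2-K1, H2-D1, B2m, Nlrc5, Tap1, Tap2, Tapbp, Psmb8, Psmb9 and Psmb10, taken by their annotated symbols out of 7897 genes measured. Symbols were available only for probes of the authors' log2 table, which holds probes detected on at least 3 arrays. Among those, 14 probes belonged to these genes, 2 each for H2-K1, B2m, Tapbp and Psmb10 and 1 for each of the other members. Dimmer probes of the members, if the array has any, were not counted. All 14 probes were above background on all 6 arrays, so every member passed the filter on dim probes in every group.

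The samples were dendritic cells grown from Rag2 knockout bone marrow on a C57BL background (age 6 weeks, with no number of mice given), cultured for 6 days in GM-CSF (1.5 ng/ml) plus IL-4 (1.5 ng/ml). The Rag2 deletion was shared by all 3 groups of 2 samples. LPS cells received bacterial lipopolysaccharide, a ligand of Toll-like receptor 4, at 1 µg/ml for 18 h. ROS cells were loaded for 1 h with the photosensitiser hematoporphyrin at 1 µg/ml, washed, lit for 3 min by a diode (450 to 600 nm, peak at 515 nm, 3.1 mW per square cm) to generate reactive oxygen species inside the cells, and kept for another 18 h. Unstimulated cells were the reference for both. Whether they were given hematoporphyrin or light, and how long they were kept after day 6, is not recorded in the labels, so each difference from them covers the whole procedure. The labels do not say that the 2 samples of a group were separate cultures, so each p-value rests on the spread between these arrays alone, and that spread may be technical.

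MHC class I molecules show peptides from inside the cell to CD8+ T cells. Proteasomes cut cytosolic proteins, and in the immunoproteasome the catalytic subunits Psmb8, Psmb9 and Psmb10 take the places of the standard subunits Psmb5, Psmb6 and Psmb7. The transporter Tap1-Tap2 moves the peptides into the endoplasmic reticulum, tapasin (Tapbp) holds the empty class I molecule beside the transporter, and the heavy chain (H2-K1 or H2-D1) with its light chain, beta-2 microglobulin (B2m), carries the loaded peptide to the surface. Nlrc5 is the transactivator of class I genes, and interferons induce most genes of the set through IRF and STAT factors. Dendritic cells use the same machinery to present taken-up antigen on class I, which is called cross-presentation.

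The promoters of 4 members are shown because their letters hold short sequences known from class I gene control. Searched on both strands were the kappaB site of enhancer A (GGGGA and TCCCC, 1 base apart), an interferon response core (GAAA and GAAA, 2 bases apart), a shorter form of it (GAA and GAAA, 2 bases apart), the X2 core bound by CREB-type factors (TGACG) and the Y box bound by NF-Y (ATTGG). The last 2 belong to the SXY module through which Nlrc5 acts. Each window, from RefSeq on build GRCm38.p6, runs 5′ to 3′ from 250 bases before the annotated start to 50 bases after it. Capitals mark matches on either strand, so that CCAAT is the Y box and TTTCACTTC the shorter interferon core read from the other strand, and no 2 matches overlapped in these windows.
H2-K1, chr17:34000298-34000597, minus strand: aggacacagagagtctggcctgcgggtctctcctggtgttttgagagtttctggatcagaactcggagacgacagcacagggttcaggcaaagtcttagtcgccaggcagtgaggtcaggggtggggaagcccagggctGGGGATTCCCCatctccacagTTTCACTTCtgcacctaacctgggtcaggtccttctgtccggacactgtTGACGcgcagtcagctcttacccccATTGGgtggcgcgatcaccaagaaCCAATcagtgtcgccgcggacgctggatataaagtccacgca
H2-D1, chr17:35262844-35263143, plus strand: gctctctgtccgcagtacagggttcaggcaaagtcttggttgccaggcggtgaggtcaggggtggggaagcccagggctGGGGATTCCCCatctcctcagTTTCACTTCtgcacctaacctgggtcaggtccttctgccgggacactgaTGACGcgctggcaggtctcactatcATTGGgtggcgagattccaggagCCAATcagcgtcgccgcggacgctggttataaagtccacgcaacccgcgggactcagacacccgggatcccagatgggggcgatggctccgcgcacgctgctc
B2m, chr2:122147437-122147736, plus strand: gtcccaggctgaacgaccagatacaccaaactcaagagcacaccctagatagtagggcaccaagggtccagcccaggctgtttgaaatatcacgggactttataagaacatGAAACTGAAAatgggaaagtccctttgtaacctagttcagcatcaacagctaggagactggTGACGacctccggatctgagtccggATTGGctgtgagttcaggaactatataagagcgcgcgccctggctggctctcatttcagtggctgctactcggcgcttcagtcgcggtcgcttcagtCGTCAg
Tap1, chr17:34187306-34187605, plus strand: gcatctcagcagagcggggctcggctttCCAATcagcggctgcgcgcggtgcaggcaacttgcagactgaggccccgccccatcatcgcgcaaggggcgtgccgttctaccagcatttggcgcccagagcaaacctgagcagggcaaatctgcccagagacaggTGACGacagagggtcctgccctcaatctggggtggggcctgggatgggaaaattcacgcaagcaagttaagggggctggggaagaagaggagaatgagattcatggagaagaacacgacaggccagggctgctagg
The 2 heavy chain promoters shared an identical run of 47 bases. Both held the enhancer A site, its first base at -111 from the start in H2-K1 and -171 in H2-D1, which 16 of 32851 promoter windows of this length held (0.0487%). Those windows belong to 15 genes and include both H2-K1 windows, that of H2-D1 and that of the class I gene H2-Q6. Positions count from the annotated start. The second H2-K1 window has another annotated start, and there the first base of the same site was at -125. The B2m window held the interferon core, present in 3.44% of windows, and the H2-K1 and H2-D1 windows held the shorter one, present in 7.52%. TGACG was present in 20.8% of all windows and ATTGG in 37.4%. Both occurred together in 7.73% of windows and in those of 5 of the 8 members that had one, namely H2-K1, H2-D1, B2m, Tap1 and Psmb9. The search set no distance between the 2, so the count of 5 is not a count of SXY modules. In H2-K1, H2-D1 and B2m a TGACG stood shortly before an ATTGG. In the Tap1 window they stood far apart, with first bases at -86 for TGACG and -222 for ATTGG. In the Psmb9 window the first bases were at -144 for TGACG and -8 for ATTGG. The Tap1 and Psmb9 windows lie head to head on opposite strands and share 275 bases, so their matches are the same letters. The Tapbp window held only ATTGG and those of Psmb8 and Psmb10 held none of the 5 sequences. RefSeq lists 2 windows for H2-K1, of which 1 is printed, and Nlrc5 and Tap2 are named only. These matches describe the letters, and binding was not measured.

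The arrays of a group correlated at 0.988 to 0.994, and 10428 to 11438 of 25697 probes were above background on an array. Mean raw signal was lowest on the LPS arrays (529 to 545), intermediate on the ROS arrays (626 to 643) and highest on the unstimulated arrays (704 to 765). Quantile normalisation removes this difference, and the values below are normalised log2 signals unless raw signal is named. Without scaling, the median change over all genes was -0.75 on the log2 scale for LPS against unstimulated, and -0.05 with it. For ROS against unstimulated it was -0.14 without scaling and 0.06 with it. Changes are therefore relative to the bulk of the genes on the array. In a mixed culture, fewer cells of a type and less RNA per cell cannot be told apart.

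LPS raised 9 of the 10 members, all but the transporter subunit Tap2, and ROS raised 5, namely Nlrc5, Tap1, Psmb8, Psmb10 and Tapbp. In limma's test 0 of the 10 were lower in either, also at an unadjusted p under 0.05. Here and below a gene rose or fell where limma's moderated test gave an adjusted p under 0.05 (Benjamini-Hochberg over 11622 probes). For LPS against unstimulated, 24.9% of all genes rose and 29% fell, and for ROS against unstimulated 22% rose and 18.1% fell. The median log2 change of the 10 members was 1.93 with LPS, against -0.05 for all genes, and 0.50 with ROS, against 0.06 for all genes. LPS against ROS, tested directly, gave 8 members higher and 0 lower, where 25% of all genes were higher and 31% lower, with a median of 1.00 for the members and -0.08 for all genes. Normalised, both LPS arrays lay above both ROS arrays and these above both unstimulated arrays in 9 of the 10 members, all but Tap2. Of all genes 9.07% (716 of 7897) had that order, each on its probe with the highest mean. Raw signals did not keep the order for H2-K1, H2-D1, B2m, Psmb8 or Psmb9. On the second probes of H2-K1, Tapbp and Psmb10 the normalised ROS and unstimulated arrays overlapped. Taken pair by pair, the arrays did not overlap and the first group was higher in 10 members for LPS against unstimulated (37.1% of all genes), in 9 for ROS against unstimulated (40.4%) and in 9 for LPS against ROS (35.5%). The ROS count of 5 members fell to 2 without ROS 1, without unstimulated 1, without unstimulated 2 or without scaling, and to 3 with no filter on dim probes, Nlrc5 and Tap1 being called each time.

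**Figure D1:**
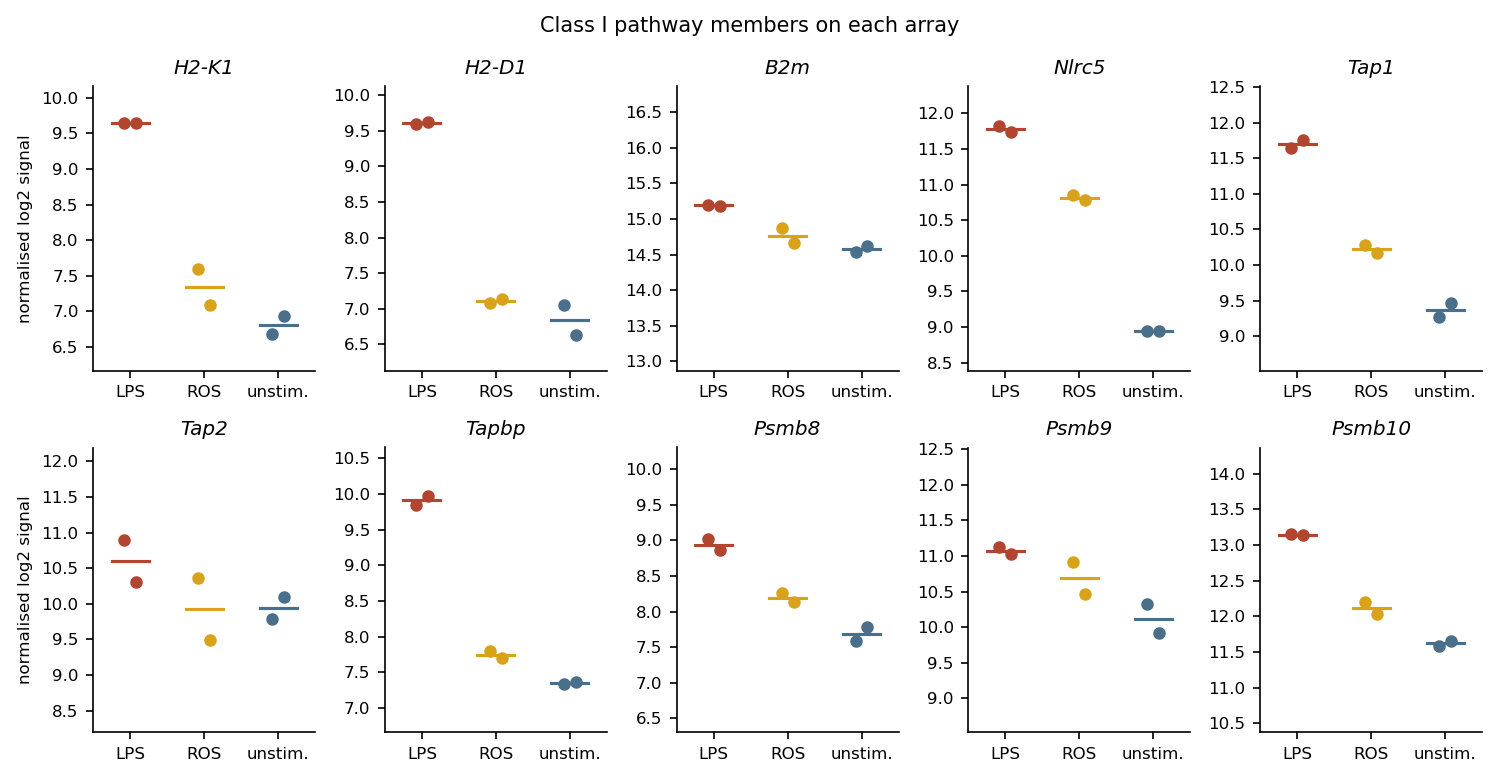
Normalised log2 signal of each member (its probe with the highest mean) on the 6 arrays, with 1 panel per gene. Points are arrays, bars are means of 2 arrays, and each panel spans the same number of log2 units. The LPS arrays lie highest and the unstimulated arrays lowest in 9 panels; in the Tap2 panel the 2 ROS arrays, at 10.36 and 9.50, enclose the unstimulated ones at 9.79 and 10.10.

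The heavy chains H2-K1 and H2-D1, which bind the peptide, were far higher in LPS cells than in either other group. H2-K1 had 9.64 and 9.65 on the LPS arrays, 7.60 and 7.09 on the ROS arrays, and 6.68 and 6.94 on the unstimulated arrays. The LPS values were tightly paired and far above all others, while the ROS values lay only just above the unstimulated ones. H2-K1 rose with LPS by 2.84 ± 0.20 (log2 change ± SE, a 7.14-fold difference, adjusted p = 0.000101). The fitted size depended on the processing, with a log2 change of 1.86 without background correction, 1.95 in the authors' table and 2.02 without scaling, all called. Its ROS change of 0.53 ± 0.20 did not pass the test (adjusted p = 0.0736, 95% interval 0.06 to 1.01). LPS cells were higher than ROS cells by 2.30 ± 0.20 (adjusted p = 0.000199). The second H2-K1 probe gave 8.12 and 8.18 on LPS arrays, 5.95 and 6.01 on ROS arrays, and 6.12 and 5.51 on unstimulated arrays. On that probe LPS stood apart again (2.33 ± 0.20, adjusted p = 0.000261) and the ROS and unstimulated arrays overlapped (0.17 ± 0.20, adjusted p = 0.556). The ROS call of H2-K1 was made in the authors' table (adjusted p = 0.0498), with a trended, robust spread (0.0407) and without ROS 2 (0.0326).

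H2-D1 followed the same order. It had 9.59 and 9.62 in LPS cells, 7.08 and 7.14 in ROS cells, and 7.05 and 6.64 in unstimulated cells. The lower ROS array was only just above the higher unstimulated array. H2-D1 rose with LPS by 2.76 ± 0.16 (6.78-fold, adjusted p = 5.02e-05; 1.81 without background correction, 1.89 in the authors' table and 1.94 without scaling, all called), while the ROS change was 0.26 ± 0.16 (adjusted p = 0.235, 95% interval -0.12 to 0.65). In direct comparison LPS exceeded ROS by 2.50 ± 0.16 (adjusted p = 6.74e-05). Classical and nonclassical class I genes are close relatives, and because probe sequences were not used here, hybridisation of 1 gene's transcript to another's probe was not tested.

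B2m, the light chain common to all class I molecules, had a smaller fitted LPS change than the heavy chains, a difference between genes that was not tested. Its raw signal was 32514 and 31066 on the LPS arrays, 27631 and 25554 on the ROS arrays, and 30996 and 29180 on the unstimulated arrays. On the normalised scale these were 15.20 and 15.18 with LPS, 14.87 and 14.66 with ROS, and 14.53 and 14.61 unstimulated. The raw values of LPS and unstimulated cells lay close together, and the normalised ones did not overlap. B2m rose with LPS by 0.62 ± 0.12 (1.53-fold, adjusted p = 0.00692), but by 0.08 without scaling (adjusted p = 0.633). Its second probe, with 14.63 and 14.98 in LPS cells, 14.53 and 14.50 in ROS cells, and 14.36 and 14.46 in unstimulated cells, did not pass with LPS (0.40 ± 0.15, adjusted p = 0.0642). The ROS change of 0.19 ± 0.12 did not pass (adjusted p = 0.257, 95% interval -0.11 to 0.49) and had the opposite sign, -0.18, without scaling. LPS against ROS gave 0.42 ± 0.12 (adjusted p = 0.0271), a call lost without LPS 1 (0.0877), LPS 2 (0.0735), ROS 2 (0.123) or unstimulated 1 (0.0511). It was also lost without scaling (0.26, adjusted p = 0.146), with no filter on dim probes (0.0530) and on the second probe (0.29, adjusted p = 0.147).

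Nlrc5, the class I transactivator, was the member with the highest ROS response. It had 11.83 and 11.74 in LPS cells, 10.85 and 10.79 in ROS cells, and 8.95 and 8.94 in unstimulated cells, where raw signals were 3191 and 2921, 2051 and 2041, and 811 and 734 in the same order. The 3 groups were fully separate, and the gap between ROS and unstimulated cells was wider than that between LPS and ROS cells. With LPS it rose by 2.84 ± 0.11 (7.15-fold, adjusted p = 1.23e-05), and with ROS by 1.87 ± 0.11 (3.66-fold, adjusted p = 0.000154). LPS exceeded ROS by 0.96 ± 0.11 (adjusted p = 0.000651). Without scaling its LPS rise was 2.21. The ROS rise of Nlrc5 passed in all 17 other settings run, with adjusted p up to 0.00359 and changes of 1.59 to 1.91.

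Of the transporter subunits, Tap1 rose with both stimuli and Tap2 passed with neither, a difference between genes that was not tested. Tap1, which binds ATP and forms the peptide channel with Tap2, had 11.64 and 11.76 in LPS cells, 10.28 and 10.17 in ROS cells, and 9.27 and 9.46 in unstimulated cells. Its groups were fully separate. Tap1 rose with LPS by 2.34 ± 0.13 (5.05-fold, adjusted p = 4.10e-05) and with ROS by 0.86 ± 0.13 (1.82-fold, adjusted p = 0.00357), and LPS exceeded ROS by 1.48 ± 0.13 (adjusted p = 0.000211). Without scaling its LPS rise was 1.73. The ROS rise of Tap1 passed in all 17 other settings, with adjusted p up to 0.0302. Tap2, the other subunit, had 10.89 and 10.31 in LPS cells, 10.36 and 9.50 in ROS cells, and 9.79 and 10.10 in unstimulated cells. Its replicates were more scattered than those of Tap1, with SD of 0.41, 0.61 and 0.22 in the LPS, ROS and unstimulated pairs, against 0.08, 0.07 and 0.14 for Tap1. The Tap2 changes were 0.66 ± 0.33 with LPS (adjusted p = 0.139, 95% interval -0.14 to 1.45) and -0.01 ± 0.33 with ROS (adjusted p = 0.978, 95% interval -0.81 to 0.78). LPS against ROS gave 0.67 ± 0.33 for Tap2 (adjusted p = 0.130, 95% interval -0.13 to 1.47), and 0.20 to 1.11 over all settings run. Without scaling the LPS change of Tap2 was -0.04, and in the authors' table it was 0.59 and passed (adjusted p = 0.0453).

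Tapasin (Tapbp), which edits the bound peptide, had 9.85 and 9.97 in LPS cells, 7.79 and 7.70 in ROS cells, and 7.34 and 7.36 in unstimulated cells on its main probe. The ROS arrays formed a narrow step above the unstimulated ones and lay far below the LPS arrays. Tapbp rose with LPS by 2.56 ± 0.11 (5.90-fold, adjusted p = 1.97e-05) and with ROS by 0.40 ± 0.11 (1.32-fold, adjusted p = 0.0356). The LPS rise was 1.83 without background correction, 1.89 in the authors' table and 1.75 without scaling, all called. Its second probe, annotated to another transcript, had 10.62 and 10.61 in LPS cells, 6.83 and 7.13 in ROS cells, and 6.95 and 6.82 in unstimulated cells. That probe showed the LPS rise (3.73 ± 0.14, 13.3-fold, adjusted p = 1.15e-05) and overlapping ROS and unstimulated arrays (0.09 ± 0.14, adjusted p = 0.645). The difference between LPS and ROS cells was 2.16 ± 0.11 on the main probe and 3.64 ± 0.14 on the other (adjusted p = 3.14e-05 and 1.31e-05). The ROS call of Tapbp was lost without either ROS array, without either unstimulated array (adjusted p = 0.0802 to 0.144), without scaling (0.409), with no filter on dim probes (0.0731) and with the replicate block (0.0623).

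**Figure D2:**
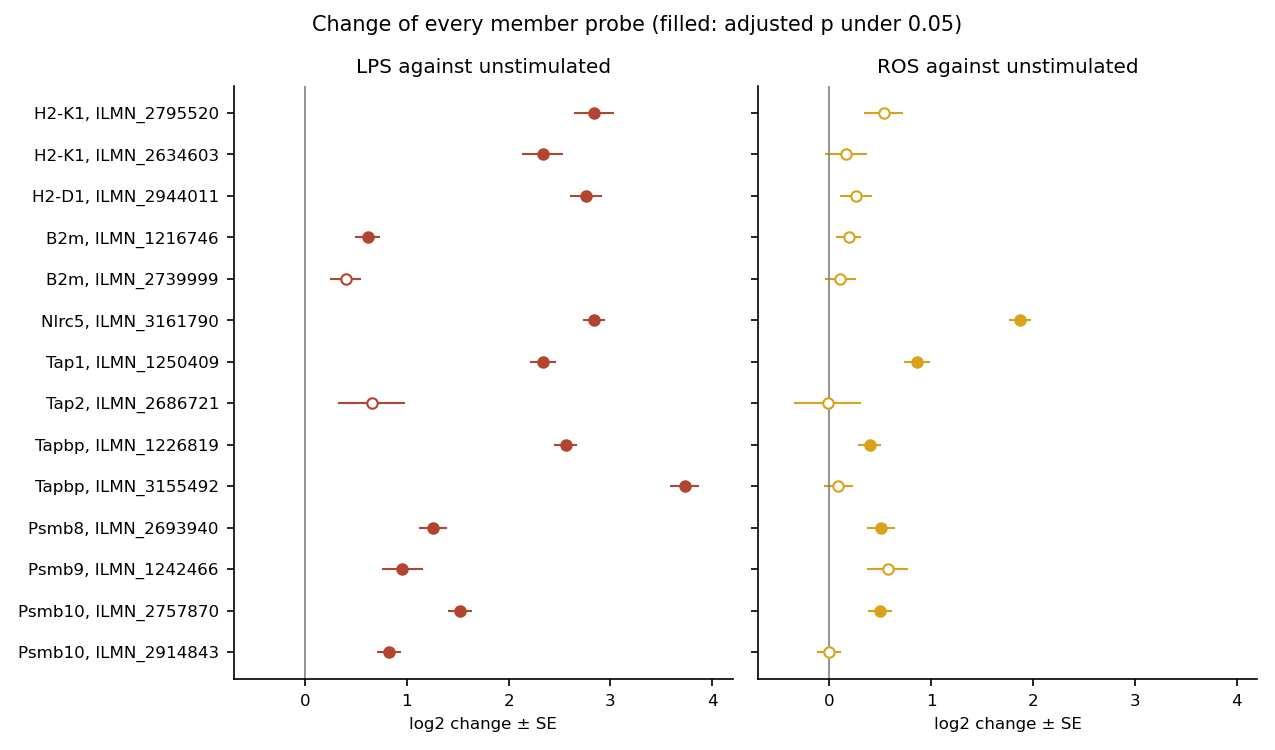
Log2 change against unstimulated cells of all 14 member probes, with LPS on the left and ROS on the right. Points are fitted changes, bars are SE, and filled points have an adjusted p under 0.05. With LPS 12 of 14 probes are filled, from 0.62 to 3.73, and with ROS 5 of 14 are filled, led by Nlrc5 at 1.87.

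All 3 immunoproteasome subunits rose with LPS, with smaller fitted changes than either heavy chain, a difference between genes that was not tested. Psmb8, which replaces Psmb5, had 9.03 and 8.86 in LPS cells, 8.26 and 8.13 in ROS cells, and 7.58 and 7.79 in unstimulated cells. The groups were separate, and the changes were 1.26 ± 0.13 with LPS (2.39-fold, adjusted p = 0.000565) and 0.51 ± 0.13 with ROS (1.42-fold, adjusted p = 0.0269). LPS exceeded ROS by 0.75 ± 0.13 (adjusted p = 0.00434), but by 0.10 without scaling (adjusted p = 0.584). Raw Psmb8 signals were close together, at 504 and 447 with LPS, 468 and 446 with ROS, and 403 and 414 unstimulated, and without scaling neither the LPS change of 0.36 (adjusted p = 0.0592) nor the ROS change of 0.26 (adjusted p = 0.207) passed. Its ROS call was also lost without either ROS array or either unstimulated array, with adjusted p of 0.0572 to 0.146, and with no filter on dim probes (0.0510).

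Psmb9, which replaces Psmb6, had 11.13 and 11.02 in LPS cells, 10.92 and 10.47 in ROS cells, and 10.32 and 9.92 in unstimulated cells. The ranges did not overlap, but the ROS and unstimulated pairs were more scattered (SD 0.31 and 0.28) than the LPS pair (SD 0.07). It rose with LPS by 0.96 ± 0.20 (1.94-fold, adjusted p = 0.00903). The ROS change of 0.57 ± 0.20 did not pass (adjusted p = 0.0674, 95% interval 0.08 to 1.07), and neither did LPS against ROS (0.38 ± 0.20, adjusted p = 0.159, 95% interval -0.11 to 0.88). The LPS call of Psmb9 was lost without unstimulated 2 (0.76, adjusted p = 0.0555) and without scaling (0.31, adjusted p = 0.229). Its ROS change passed in the authors' table (adjusted p = 0.0127), without background correction (0.0159), with an offset of 50 (0.0360), with a trended, robust spread (0.0164) and with the replicate block (0.0329).

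Psmb10, which replaces Psmb7, had 13.15 and 13.14 in LPS cells, 12.21 and 12.03 in ROS cells, and 11.59 and 11.66 in unstimulated cells on its main probe. The second probe had 12.45 and 12.55 in LPS cells, 11.72 and 11.61 in ROS cells, and 11.71 and 11.63 in unstimulated cells. Both probes separated the LPS arrays from the rest, and only the main probe separated ROS from unstimulated arrays. With LPS the changes were 1.52 ± 0.12 and 0.83 ± 0.12 on the 2 probes (adjusted p = 0.000164 and 0.00179), and with ROS 0.50 ± 0.12 and -0.00 ± 0.12 (adjusted p = 0.0198 and 0.981). LPS exceeded ROS on both, by 1.03 ± 0.12 and 0.83 ± 0.12 (adjusted p = 0.000695 and 0.00156). The ROS call of the main probe was lost without ROS 1 (adjusted p = 0.0948), unstimulated 1 (0.102) or unstimulated 2 (0.0746) and without scaling (0.184). Both stimuli were set against the same unstimulated arrays.

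**Figure D3:**
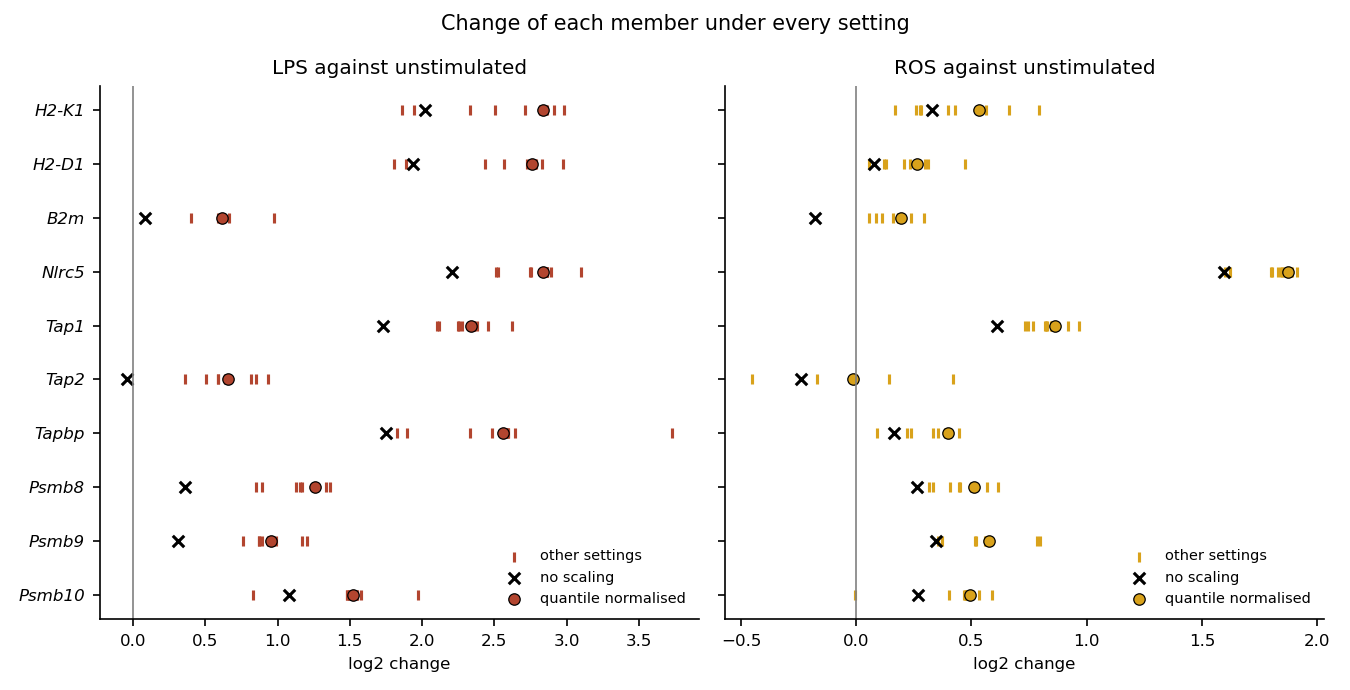
Log2 change of each member against unstimulated cells under every setting run, LPS on the left and ROS on the right, with a different scale on each horizontal axis. Circles are the quantile normalised values, crosses the values without scaling between arrays, and ticks the other settings, which include leaving out each array and using the other probe. All LPS values of H2-K1, H2-D1, Nlrc5, Tap1 and Tapbp stay at 1.73 or above, while Tap2 and B2m reach -0.04 and 0.08 without scaling.

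The other class I and class I-like heavy chains largely moved with H2-K1 and H2-D1 under LPS. Of 24 listed genes 10 were measured, of which 7 rose, 2 fell and 1 did not pass, with a median of 1.77. Over all genes 24.9% rose and 29% fell. H2-T10, a nonclassical chain seen by gamma-delta T cells, rose by 3.75 ± 0.15 (adjusted p = 1.23e-05), with 10.48 and 10.25 in LPS cells, 7.00 and 7.24 in ROS cells, and 6.66 and 6.57 in unstimulated cells. The LPS arrays thus stood far above both other groups. H2-Q8 of the Qa region rose by 2.77 ± 0.17 (adjusted p = 6.07e-05). H2-T23, the Qa-1 chain recognised by NK cell receptors, rose by 1.84 ± 0.14 (adjusted p = 0.000144), and H2-M3, which presents formylated peptides, by 1.69 ± 0.11 (adjusted p = 6.87e-05). Hfe, a class I-like protein of iron regulation that presents no peptide, fell by 2.74 ± 0.12 (adjusted p = 1.98e-05). All 9 of these LPS calls were also made with median scaling and without scaling.

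With ROS the same 10 heavy chain genes had 2 rises, 2 falls and a median of 0.05, where 22% of all genes rose and 18.1% fell. H2-T10 rose by 0.50 ± 0.15 (adjusted p = 0.0363, but 0.178 without scaling). The other rise was Cd1d1, which presents lipids to NKT cells and is named after its value was seen (1.63 ± 0.13, adjusted p = 0.000352, and 1.33 ± 0.13 with LPS, adjusted p = 0.000364). Hfe fell by 2.37 ± 0.12 (adjusted p = 0.000107). H2-Q8, H2-T23 and H2-M3 had changes of 0.04 ± 0.17, 0.26 ± 0.14 and -0.04 ± 0.11 (adjusted p = 0.886, 0.190 and 0.811). In the direct comparison of LPS with ROS, 6 of the 10 were higher and 2 lower, with a median of 1.66. Over all genes 25% were higher and 31% lower.

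**Figure D4:**
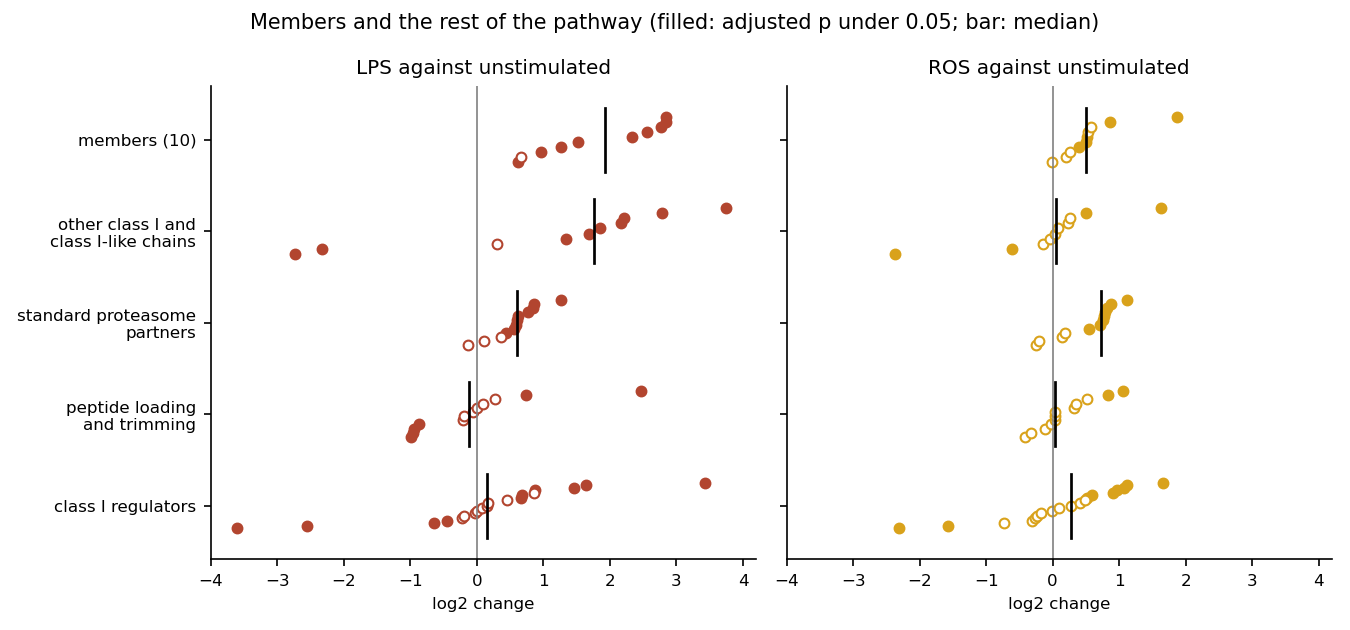
Log2 change against unstimulated cells of the 10 members and of the measured genes of 4 pathway lists, with LPS on the left and ROS on the right. Each point is a gene, filled where its adjusted p is under 0.05, and the vertical bar is the list's median. With LPS the medians are 1.93 for the members, 1.77 for other heavy chains, 0.60 for standard proteasome partners, -0.13 for peptide loading and trimming and 0.16 for regulators.

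The standard proteasome and its partners, all 12 measured, rose in 9 cases with LPS (median 0.60) and in 8 with ROS (median 0.73), with 0 falls in either, also at an unadjusted p under 0.05. Of all genes 24.9% rose with LPS and 22% with ROS. Without scaling 0 of the 9 LPS rises and 7 of the 8 ROS rises were called. Psmb5, the subunit that Psmb8 replaces, changed with LPS by 0.44 ± 0.15 (adjusted p = 0.0463, and lower, -0.47, without scaling) and its ROS change was -0.25 ± 0.15 (adjusted p = 0.218). Psmb6, replaced by Psmb9, had 0.86 ± 0.19 with LPS (adjusted p = 0.0111) and 0.14 ± 0.19 with ROS (adjusted p = 0.599). Psmb7, replaced by Psmb10, rose with both, by 0.85 ± 0.13 and 0.70 ± 0.13 (adjusted p = 0.00216 and 0.00684). On the normalised scale none of the 3 replaced subunits fell past the threshold with either stimulus.

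Psme1 and Psme2, which form the PA28 cap that opens the proteasome, rose with LPS by 0.61 ± 0.11 and 1.27 ± 0.14 (adjusted p = 0.00468 and 0.000603). With ROS they rose by 0.77 ± 0.11 and 0.82 ± 0.14 (adjusted p = 0.00308 and 0.00546), and these ROS calls were also made without scaling. Pomp, the assembly factor of new proteasomes, rose by 0.76 ± 0.14 with LPS and 1.12 ± 0.14 with ROS (adjusted p = 0.00527 and 0.00195). Psmb2, a noncatalytic subunit of the same ring, rose by 0.61 ± 0.11 and 0.88 ± 0.11 (adjusted p = 0.00423 and 0.00176). The LPS rises of these 4 genes were not called without scaling.

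Of 19 listed genes of peptide loading and trimming 12 were measured. With LPS 2 rose and 4 fell (median -0.13), where 24.9% of all genes rose and 29% fell. With ROS 2 rose and 0 fell (median 0.03), and 4 and 2 did at an unadjusted p under 0.05. Of all genes 22% rose and 18.1% fell with ROS at the adjusted threshold. The LPS balance turned with the scaling, with 4 higher and 2 lower under median scaling (median -0.08) and 1 higher and 9 lower without scaling (median -0.97). With ROS 4 were higher and 0 lower under median scaling, and 2 higher and 2 lower without scaling. Tapbpl, a tapasin relative that edits peptides away from the loading complex, rose by 2.46 ± 0.15 with LPS and 0.83 ± 0.15 with ROS (adjusted p = 6.43e-05 and 0.00744). It had 10.42 and 10.49 in LPS cells, 8.98 and 8.67 in ROS cells, and 7.89 and 8.09 in unstimulated cells, the order seen in the members. Ide, a metallopeptidase, rose by 0.74 ± 0.12 with LPS and 1.06 ± 0.12 with ROS (adjusted p = 0.00269 and 0.00113), the first not called without scaling. Uggt1, which returns misfolded glycoproteins to the chaperone cycle, fell with LPS by 0.99 ± 0.12 (adjusted p = 0.000894). Of the chaperones of the loading complex, Calr had 0.09 ± 0.12 with LPS and 0.35 ± 0.12 with ROS (adjusted p = 0.524 and 0.0543). Pdia3 fell with LPS by 0.97 ± 0.27 (adjusted p = 0.0251, but 0.124 with median scaling), with LPS arrays at 11.89 and 11.13. Erap1, the trimming peptidase of the endoplasmic reticulum, was not analysed here.

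Among regulators of class I genes, 19 of 24 were measured. With LPS 6 rose and 4 fell, where 24.9% of all genes rose and 29% fell. With ROS 7 rose and 2 fell, where 22% of all genes rose and 18.1% fell. The LPS counts were 9 higher and 3 lower with median scaling and 4 higher and 9 lower without scaling, and the ROS counts 8 and 3, and 6 and 4. Stat2, part of the factor through which type I interferon acts, rose by 3.42 ± 0.13 with LPS and 1.66 ± 0.13 with ROS (adjusted p = 1.23e-05 and 0.000372). Stat2 had 10.29 and 10.12 in LPS cells, 8.40 and 8.48 in ROS cells, and 6.68 and 6.89 in unstimulated cells, so its groups were as separate as those of Nlrc5. Irf1, which binds interferon response elements, rose by 0.87 ± 0.13 and 0.52 ± 0.13 (adjusted p = 0.00215 and 0.0225, the ROS value 0.167 without scaling). Ifngr1, a chain of the interferon gamma receptor, fell by 2.56 ± 0.11 with LPS and fell by 2.31 ± 0.11 with ROS (adjusted p = 1.67e-05 and 8.52e-05). Ciita, the class II counterpart of Nlrc5, fell by 3.60 ± 0.29 with LPS and fell by 1.58 ± 0.29 with ROS (adjusted p = 0.000185 and 0.00769). Nlrc5 and Ciita thus changed in opposite directions under both stimuli. H2-Ab1, a class II chain, fell by 0.65 ± 0.12 with LPS and fell by 1.79 ± 0.12 with ROS (adjusted p = 0.00557 and 0.000227). Rfx5 was not analysed here.

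The non-member genes with the profile nearest to the mean centred profile of the 10 members over the 6 arrays were Cd274, Bid, Dtx2, Casp1 and Flrt3, at root mean square distances of 0.0700 to 0.101 on the log2 scale. The members themselves lay at 0.135 (Psmb10) to 0.560 (Nlrc5). Cd274, the checkpoint ligand PD-L1, had 15.40 and 15.26 in LPS cells, 14.17 and 13.99 in ROS cells, and 13.40 and 13.35 in unstimulated cells.

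Markers of cell types that the culture could hold also differed between groups, and their part in the results above was not tested. The sums below are of background-corrected signal without scaling between arrays. They therefore also carry the lower mean signal of the LPS and ROS arrays, whereas rises and falls by gene are on the normalised scale. Of 8 dendritic cell markers 6 were measured, and their summed background-corrected signal was 38465 to 42070 on LPS arrays, 31785 to 33487 on ROS arrays, and 89789 to 104084 on unstimulated arrays. By gene, 5 fell with LPS, while 4 fell and 1 rose with ROS. All 6 were above background in ROS and unstimulated cells, and Itgax on 1 of 2 LPS arrays. Of the 6, H2-Ab1, H2-Aa and Cd74 serve class II presentation and Ciita regulates it. H2-Ab1 and Cd74 had the highest signals and weighed most in the sum. Zbtb46 fell with LPS by 0.76 ± 0.12 and rose with ROS by 0.77 ± 0.12 (adjusted p = 0.00245 and 0.00382). Itgax passed with neither (adjusted p = 0.0521 and 0.0699). Macrophage markers (7 of 10) summed to 16582 to 17005 with LPS, 9650 to 13556 with ROS and 27227 to 27232 unstimulated, and Apoe was not above background in ROS cells. Gpnmb had the highest signal of these markers on every array and weighed most in the sum. It passed with neither stimulus (0.10 ± 0.23 with LPS and -0.30 ± 0.23 with ROS, adjusted p = 0.733 and 0.343). By gene, 2 rose and 3 fell with LPS, and 0 rose and 4 fell with ROS. Neutrophil markers (10 of 10) summed to 16150 to 16792 with LPS, 42534 to 47002 with ROS and 67236 to 71140 unstimulated. By gene, 1 rose and 9 fell with LPS, while 4 rose and 4 fell with ROS. Ngp, Mpo, Prtn3 and Ctsg were not above background in LPS cells.

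Mast cell and basophil markers (3 of 7) summed to 79.1 to 116 with LPS, 3995 to 4392 with ROS and 1093 to 1361 unstimulated, and Fcer1a was not above background in LPS cells; 3 fell with LPS and 2 rose with ROS. Stromal markers (3 of 6) summed to 2002 to 2316 with LPS, 130 to 159 with ROS and 250 to 265 unstimulated, with Col1a1 not above background in ROS cells; 2 rose with LPS and 2 fell with ROS. Natural killer cell markers (3 of 5) summed to 97.5 to 126 with LPS, 331 to 378 with ROS and 227 to 301 unstimulated, and Klrb1c was not above background in LPS cells; 1 fell with LPS and 1 rose with ROS. T and B cell markers (0 of 7) were not analysed here.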

How the data were processed

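RNA from bone marrow-derived dendritic cells in 3 groups of 2 samples was measured on 6 1-colour Illumina arrays, called by group and replicate. A deposited table gives the raw intensity of 25697 probes (GenomeStudio 2009.2, per the submitters' processing notes) and, for 5 arrays, deposited detection p-values. For LPS 2, which has none, the detection limit (between 160.52 and 160.57) and from it the background came from the authors' log2 table, whose 11220 probes are those detected on at least 3 arrays. That deposited log2 table looks quantile normalised: its sorted columns differ by at most 0.0035.

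Background was removed with limma's normexp model (offset 16), followed by quantile normalisation and log2. Probes needed a detection p under 0.05 on the 2 arrays of some group, and 11622 passed. Symbols came from the platform annotation (10558 probes of the authors' table with 1 symbol, 0 with several, 662 with none). Probes outside that table had no symbol here. The probe with the highest mean stood for a gene. Other probes are given for members only, although some list genes had several, such as Irf1 with 4 and Psmb7 with 3. A single limma 3.58.1 fit (R 4.3.3; 3 residual and 3.13 prior degrees of freedom) covered all groups, and Benjamini-Hochberg adjustment ran over all 11622 probes of a comparison. The fit was also run on simulated data with independent noise and 200 probes changed in LPS only. Far more genes were called in the real data, and the simulation did not test the scaling between arrays. The text names all members, the 3 largest called changes of each pathway list, 14 further genes of the lists by name where measured, and the 5 genes of nearest profile. Members and lists were chosen with earlier results of these data known, and the promoter motifs with the sequences in view. Slides and scan dates were not used here, so batches were not tested. The number of arrays limits the precision of every value.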

Additional observations from a re-analysis of the deposited data

How the results depend on the processing

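Besides the settings reported, 17 alternatives were run for each comparison (background correction, offset, scaling, the authors' log2 table, the filter on dim probes, the spread model, the replicate block, only the 2 groups compared, the background of LPS 2, and each array left out), plus the other probe where a member has 2. For LPS against unstimulated, the members called higher numbered 6 without scaling and 8 to 10 otherwise. For ROS against unstimulated, 5 members were called higher, against 2 without scaling, 3 with no filter on dim probes, 2 to 5 with an array left out, 6 without background correction or with an offset of 50, and 7 in the authors' table or with a trended, robust spread; the genes called changed were 3164, against 1892 to 3178 with an array left out (2095 without ROS 1, 1892 without unstimulated 1 and 1924 without unstimulated 2). Leaving out an array costs a residual degree of freedom. For LPS against ROS, 6 members were higher without scaling and 7 to 9 otherwise. Members called lower were 0 in every setting. Signs turned for Tap2 (LPS against unstimulated, -0.0433 without scaling; ROS against unstimulated, 0.42 without ROS 2 and 0.14 without unstimulated 2, where its range with an array left out was -0.45 to 0.42), for B2m (ROS against unstimulated, -0.18 without scaling), for Psmb10 (ROS against unstimulated, -0.0042 on the other probe) and for Psmb9 (LPS against ROS, -0.0356 without scaling), none of them past the threshold. Without scaling 10.6% of the genes called for LPS against unstimulated were higher, and 46.1% with quantile normalisation, 58.7% with median scaling; for LPS against ROS 17.4%, 44.7% and 54.1%, and for ROS against unstimulated 32.7%, 54.9% and 57.7%. Differences between replicates 1 and 2 hardly correlated between groups (-0.02, 0.02 and -0.11), which does not settle whether samples were paired. With the replicate number as a block 9, 5 and 8 members were called in the 3 comparisons.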

Other observations

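Psmb9, Tap1, Psmb8 and Tap2 lie side by side on chromosome 17 between genes of class II presentation (order from RefSeq, GRCm38.p6; the stretch was chosen after its values were seen). Of the 5 protein-coding genes on either side, 10 in all, 8 fell and 1 rose with LPS, and 7 fell and 0 rose with ROS in limma's test (1, Brd2, at an unadjusted p of 0.0499), while 3 of the 4 members between them rose with LPS and 2 with ROS. Over all genes 29% fell and 24.9% rose with LPS, and 18.1% fell and 22% rose with ROS. On the Psmb9 side H2-DMb1, a chain of the class II peptide editor, fell by 1.79 ± 0.11 with LPS and fell by 1.51 ± 0.11 with ROS (adjusted p = 6.18e-05 and 0.000273). On the Tap2 side H2-Ob, which restrains that editor, fell by 2.44 ± 0.14 with LPS (adjusted p = 4.70e-05) and was not above background on either ROS array. H2-DMb2, also among the falls, could be detected on only 1 LPS array. The gene that rose with LPS was Brd2, a chromatin reader (0.90 ± 0.13, adjusted p = 0.00209).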
